A study of Mus musculus with 12 samples.

Results

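A set of 9 genes that mark cross-presenting and plasmacytoid dendritic cells were followed through 12 tumors that had been grown under the skin of mice from Renca, a renal carcinoma line. They are Xcr1, Clec9a, Batf3, Irf8, Itgae, Naaa, Zbtb46, Flt3 and Siglech. They were taken by name from the deposited table through their Ensembl identifiers, which found 9 of 9 among 14496 genes. Tumors were grown in BALB/C mice and collected whole 14 days after inoculation, so that each library holds RNA of Renca cells together with that of the stroma. In 6 of them the mouse also bore a tumor inside the kidney (IK), and 6 grew alone (SC, subcutaneous only). The series set out to learn how a distant tumor bears on the transcriptome of the subcutaneous tumor. The sources used here give neither the age of the mice nor whether each tumor came from its own mouse. The p-values therefore cover no more than the spread among these 12 libraries, part of which may be technical.

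Dendritic cells take up antigen and present it to T cells. The cross-presenting subset, also called type 1 conventional dendritic cells, loads antigen from dead cells onto MHC class I and is known in mouse tumors for priming CD8 T cells. It depends on the growth factor receptor FLT3 and on the transcription factors IRF8 and BATF3, and it is drawn to the chemokine XCL1 through XCR1. Plasmacytoid dendritic cells share FLT3 and IRF8, carry the lectin Siglec-H in the mouse, and are known for making type I interferon. Few of the 9 genes belong to these cells alone. Integrin CD103 (Itgae) is also found on T cells, Irf8 and Naaa are active in macrophages, Irf8 in B cells, Batf3 in activated T cells and Zbtb46 in endothelium.

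The promoters of 8 of the 9 genes were found in a RefSeq table of the GRCm38.p6 build, a newer build than the mm9 build of the deposited values. They were searched on both strands for 5 motifs of the factors named above. Each window runs from 250 bases before a start given in that table to 50 after it, and Irf8 has 2 such windows. For Zbtb46 that start lies 35.0 kilobases inside the gene as GENCODE M21 annotates it, so its window is not shown, and for Batf3 it lies 567 bases inside the gene. The motif of PU.1 with IRF8 was GGAA and GAAA with 2 bases of any kind between them, and that of IRF alone was a repeated GAAA with the same spacing. AP1, which BATF3 binds with JUN, was TGANTCA. For BATF with IRF, GAAATGA was the form without a gap, and TTTC and TGA with 4 bases between them the gapped form. The gapped form was found in Xcr1 and Clec9a, against 4.56% of all 32817 promoters. The ungapped form was found in Clec9a and Zbtb46 (5.45% of all), and AP1 in Zbtb46 (7.81% of all), where the last 3 bases of the AP1 match are the first 3 of the ungapped match. The PU.1 with IRF motif (2.72% of all) and the IRF motif (3.43%) were found in 0 of the 8 genes. The promoters of Xcr1 and Clec9a are shown because they hold letters these factors can bind, and that of Siglech as the plasmacytoid gene without any. Capitals mark the matches, and each line reads 5′ to 3′ along the gene's strand.
Xcr1, chr9:123861980-123862279, minus strand: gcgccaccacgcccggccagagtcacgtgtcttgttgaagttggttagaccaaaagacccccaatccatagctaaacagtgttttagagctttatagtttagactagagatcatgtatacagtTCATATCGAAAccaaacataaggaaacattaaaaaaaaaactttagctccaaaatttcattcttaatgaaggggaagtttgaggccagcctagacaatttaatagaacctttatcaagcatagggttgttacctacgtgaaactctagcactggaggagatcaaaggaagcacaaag
Clec9a, chr6:129408612-129408911, plus strand: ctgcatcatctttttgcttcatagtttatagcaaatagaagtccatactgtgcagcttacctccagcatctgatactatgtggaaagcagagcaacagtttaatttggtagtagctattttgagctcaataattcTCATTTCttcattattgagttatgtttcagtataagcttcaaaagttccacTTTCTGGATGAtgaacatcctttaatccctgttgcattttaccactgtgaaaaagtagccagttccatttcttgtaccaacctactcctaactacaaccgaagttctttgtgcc
Siglech, chr7:55767934-55768233, plus strand: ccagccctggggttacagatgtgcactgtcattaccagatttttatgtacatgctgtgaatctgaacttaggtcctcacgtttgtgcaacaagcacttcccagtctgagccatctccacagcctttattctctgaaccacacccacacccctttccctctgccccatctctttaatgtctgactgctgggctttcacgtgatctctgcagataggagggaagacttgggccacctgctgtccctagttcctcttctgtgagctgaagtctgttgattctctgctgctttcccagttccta
A match of letters is a description of the window and not a bound site, and no binding was measured in these tumors.

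All 9 genes had lower mean levels in the tumors of mice that also bore an IK tumor, and none passed the test across all genes. The log2 differences (IK minus SC) ran from -0.20 for Naaa to -1.21 for Siglech, with a median of -0.57, while the median over all 14008 genes tested was 0.01. Of those genes, 46.7% had a lower mean with an IK tumor. With limma and Benjamini-Hochberg adjustment, 0 of the 9 were called at 0.05, as were 0% of all genes. At an unadjusted p under 0.05 limma had 3 of the 9, all lower, against 5.62% of all genes in that direction, and voom on recovered reads had 5 of the 9, against 5.81%, and 0 after adjustment. This unadjusted count turned on single tumors. It was 9 of the 9 without IK replicate 2 (12% of all genes) or SC replicate 6 (11.3%). It was 0 of the 9 without IK replicate 3 (3.95%), 4 (2.92%) or 6 (3.71%), without SC replicate 3 (4.4%) or 5 (2.98%), and with a pan-leukocyte covariate (4.55%), and 7 of the 9 with a replicate block (5.55%). Because the tissue was measured in bulk, fewer cells of a type and less RNA per cell cannot be told apart.

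For the CPM of the 9 genes, a pair of tumors stood toward the opposite group. Replicate 2 of the IK group was the highest of its group for 9 of the 9 genes, and replicate 6 of the SC group the lowest of its group for 9 of the 9. Across all tested genes the first position held for 28.6%, the second for 26.0% and both at once for 18.8%. The same tumors stood apart in the transcriptome as a whole. On the first principal component, with 62.6% of the variance, IK replicate 2 lay at 33.04 and the other 5 IK tumors at -28.4 to -8.19. SC replicate 6 lay at -32.2 and the other 5 SC tumors at 7.09 to 44.2. SC replicate 6 also held little muscle RNA, with 2.05 CPM (reads of a gene per 1000000 reads of its library) summed over 5 muscle genes against 97.8 to 381 in the other SC tumors. Depth was even, at 53312559 to 66142468 recovered reads per tumor. For the 9 genes, all differences are also given without IK replicate 2, and some without SC replicate 6 or without both. For other named genes called without IK replicate 2, adjusted p-values are also given without SC replicate 6. The p-values after leaving a tumor out do not cover the choice of that tumor.

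**Figure D1:**
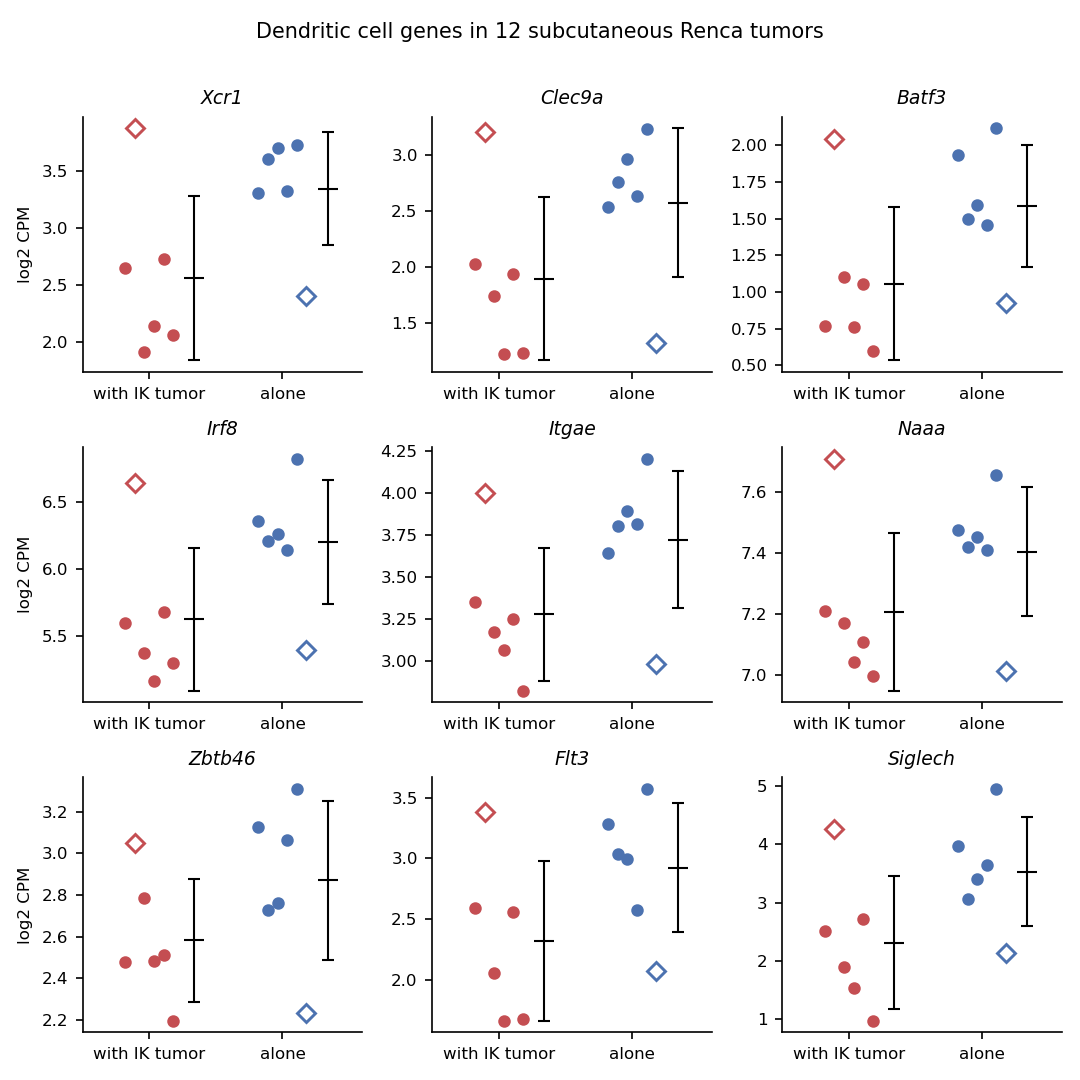
Level of each of the 9 dendritic cell genes (y axis, log2 CPM) in the 6 tumors grown with an IK tumor and the 6 grown alone, with the group mean and SD beside them. Open diamonds are IK replicate 2 and SC replicate 6, the highest of the IK tumors and the lowest of the SC tumors in all 9 panels.

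Among the surface receptors of cross-presenting cells, Xcr1 (ENSMUSG00000060509, chromosome 9), the receptor of XCL1, lay at 1.91, 2.39 and 3.88 log2 CPM as the lowest, median and highest of the 6 tumors with an IK tumor. Alone, the same values were 2.40, 3.47 and 3.73. The groups overlapped through IK replicate 2, the highest of all 12, and SC replicate 6, while the other 5 SC tumors lay within 0.42 log2 units of each other and above the other 5 IK tumors. The means were 2.56 ± 0.72 with an IK tumor and 3.35 ± 0.50 alone (SD, n = 6 each), a 1.73-fold difference. In limma the log2 difference was -0.79 (SE 0.32, 95% interval -1.48 to -0.09, Benjamini-Hochberg adjusted p = 0.432). The smallest count behind these values was 219 reads, so counting error is small beside the spread of the tumors.

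Clec9a (ENSMUSG00000046080, chromosome 6) encodes DNGR-1, a lectin that recognizes actin filaments exposed by dead cells. Its lowest, median and highest levels were 1.22, 1.84 and 3.20 log2 CPM with an IK tumor and 1.32, 2.69 and 3.23 alone. SC replicate 6 stood far below its group, and its level was reached or exceeded by 4 of the 6 IK tumors. The log2 difference was -0.68 (SE 0.36, 95% interval -1.46 to 0.10, limma adjusted p = 0.462).

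Itgae (ENSMUSG00000005947, chromosome 11) encodes the alpha chain of CD103, which binds E-cadherin. It lay at 2.83, 3.21 and 4.0 log2 CPM with an IK tumor and at 2.98, 3.81 and 4.21 alone, with overlap only through the same pair of tumors. Its log2 difference was -0.45 (SE 0.21, 95% interval -0.90 to 0.01, limma adjusted p = 0.439). Naaa (ENSMUSG00000029413, chromosome 5), a lysosomal amidase that breaks down palmitoylethanolamide, had both the highest level and the smallest difference of the 9. It lay at 7.0, 7.14 and 7.71 log2 CPM with an IK tumor and at 7.01, 7.44 and 7.66 alone. Its log2 difference of -0.20 (SE 0.12, 95% interval -0.46 to 0.07) had a limma adjusted p of 0.498, and its groups too overlapped only through that pair.

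Among the transcription factors of the lineage, Irf8 (ENSMUSG00000041515, chromosome 8), needed for cross-presenting cells, lay at 5.16, 5.48 and 6.64 log2 CPM with an IK tumor and at 5.39, 6.23 and 6.82 alone. Its log2 difference was -0.57 (SE 0.26, 95% interval -1.13 to -0.02, limma adjusted p = 0.432). As for Xcr1, the overlap came from IK replicate 2 and SC replicate 6. Batf3 (ENSMUSG00000026630, chromosome 1), which partners IRF8 and maintains its expression in this subset, lay at 0.60, 0.91 and 2.04 log2 CPM with an IK tumor and at 0.93, 1.55 and 2.11 alone. It had the lowest CPM of the 9, with 92 reads in the lowest library, and a log2 difference of -0.53 (SE 0.25, 95% interval -1.07 to 0.01, limma adjusted p = 0.438). Zbtb46 (ENSMUSG00000027583, chromosome 2), a factor of conventional dendritic cells and their precursors, lay at 2.19, 2.50 and 3.05 log2 CPM with an IK tumor and at 2.23, 2.91 and 3.31 alone. Its log2 difference of -0.29 (SE 0.18, 95% interval -0.68 to 0.10, limma adjusted p = 0.503) was the second smallest in size of the 9. Zbtb46 and Flt3 were the 2 genes whose groups overlapped beyond IK replicate 2 and SC replicate 6, since Zbtb46 was higher in IK replicate 3 (2.78) than in SC replicate 2 (2.73) and Flt3 higher in IK replicate 1 (2.59) than in SC replicate 4 (2.57). Without that pair, every IK tumor lay below every SC tumor for 7 of the 9 genes and for 7.82% of all genes; with all 12 tumors this held for 0 of the 9 and 0.2% of all.

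Flt3 (ENSMUSG00000042817, chromosome 5) encodes the receptor through which FLT3 ligand expands dendritic cells of both kinds. It lay at 1.66, 2.31 and 3.38 log2 CPM with an IK tumor and at 2.07, 3.01 and 3.57 alone, and its log2 difference was -0.60 (SE 0.31, 95% interval -1.27 to 0.07, limma adjusted p = 0.456). Siglech (ENSMUSG00000051504, chromosome 7), the plasmacytoid lectin that signals through the adaptor DAP12, had the widest range of the 9. It lay at 0.98, 2.20 and 4.25 log2 CPM with an IK tumor and at 2.14, 3.52 and 4.94 alone. From IK replicate 6, with 130 reads, to SC replicate 5, with 1957, its level spanned 3.97 log2 units, against 0.71 for Naaa. The Siglech means were 2.31 ± 1.14 with an IK tumor and 3.53 ± 0.93 alone (SD, n = 6 each), a 2.32-fold difference. The log2 difference of -1.21 (SE 0.54, 95% interval -2.37 to -0.05) had a limma adjusted p of 0.432.

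Per length, Naaa and Irf8 were the most abundant of the 9. CPM were divided by the kilobases of annotated exon in GENCODE M21, which is newer than the annotation behind the counts. In tumors alone Naaa had 45.9 ± 6.31 CPM per kilobase and Irf8 10.8 ± 3.23 (SD, n = 6). Siglech followed with 4.05 ± 2.71, Itgae with 2.98 ± 0.75, Xcr1 with 2.39 ± 0.67, Batf3 with 1.95 ± 0.54, Clec9a with 1.94 ± 0.70, Flt3 with 1.29 ± 0.44 and Zbtb46 with 0.88 ± 0.22. From Siglech downward each pair of neighbours differed by less than the larger SD of the pair, whereas Naaa and Irf8 stood above the rest by more than their SDs. These SDs are spreads between tumors and do not settle the order of genes measured in the same tumor, which was not tested. With an IK tumor the levels per length were 40.3 ± 8.08 for Naaa, 7.45 ± 3.36 for Irf8, 2.19 ± 0.68 for Itgae and 1.96 ± 1.86 for Siglech, a reverse order that lies within their SDs. The other 5 genes followed in the order they had alone.

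Leaving out either of the 2 tumors that stood apart enlarged all 9 differences, as follows from their positions. Without IK replicate 2 the log2 differences were -1.05 for Xcr1, -0.94 for Clec9a, -0.73 for Batf3, -0.78 for Irf8, -0.59 for Itgae, -0.30 for Naaa, -0.38 for Zbtb46, -0.81 for Flt3 and -1.60 for Siglech. Their limma adjusted p-values ran from 0.052 for Xcr1 to 0.201 for Zbtb46, and 0 of the 9 were called, against 1.22% of all genes. Without SC replicate 6 the differences were -0.98 for Xcr1, -0.93 for Clec9a, -0.28 for Naaa and -1.49 for Siglech, and limma adjusted p-values of the 9 lay between 0.196 and 0.204. Leaving out SC replicate 5, the highest SC tumor for 9 of the 9 genes, brought Siglech to -0.93 and Naaa to -0.15. Without both tumors that stood apart, limma called 9 of the 9 genes, where 17.6% of all genes were called. The differences were then -1.24 for Xcr1, -0.94 for Irf8, -0.38 for Naaa and -1.88 for Siglech. With weights that count variable tumors less limma called Xcr1, Batf3, Irf8 and Itgae (adjusted p = 0.039 to 0.046), where 3.89% of all genes were called. The pair was chosen by its levels, so the count of 9 describes the other 10 tumors and is no test of the design.

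**Figure D2:**
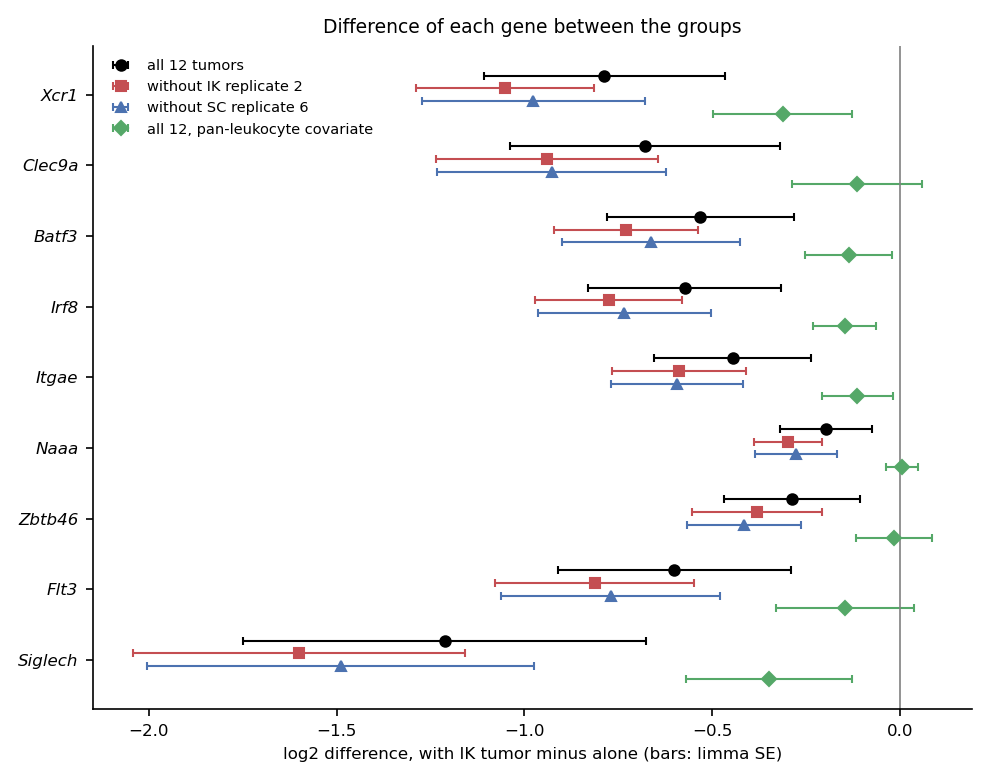
Log2 difference of each gene (x axis, tumors with an IK tumor minus tumors alone, bars are limma SEs) with all 12 tumors, without IK replicate 2, without SC replicate 6, and with a pan-leukocyte covariate. Siglech moved from -1.21 to -1.60 without IK replicate 2 and to -0.35 with the covariate.

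General leukocyte RNA moved with the 9 genes. Ptprc, which encodes the leukocyte antigen CD45, lay at 6.96 to 7.91 log2 CPM with an IK tumor and at 7.09 to 8.06 alone, a log2 difference of -0.35 (SE 0.17, limma adjusted p = 0.444). For each of 5 pan-leukocyte genes the mean was lower in the IK group, and their summed level was 514 to 894 CPM with an IK tumor and 503 to 962 alone, again with IK replicate 2 highest and SC replicate 6 lowest of their groups. With the mean of these 5 genes as a covariate in limma, the differences were -0.31 for Xcr1 (SE 0.19), -0.35 for Siglech (SE 0.22), -0.15 for Irf8 (SE 0.08), -0.15 for Flt3 (SE 0.18), -0.14 for Batf3 (SE 0.12), -0.11 for Clec9a (SE 0.17) and -0.11 for Itgae (SE 0.10). Zbtb46 lay at -0.02 (SE 0.10), and Naaa turned to 0.005 (SE 0.04). The limma adjusted p-values in that fit were 0.693 or higher.

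Set against Ptprc in the same tumor, 7 of the 9 genes still lay lower in the IK group, where 6.1% of all genes did. Since Ptprc itself lay lower, a gene with equal CPM in both groups has a higher ratio with an IK tumor. The log2 ratio of Siglech to Ptprc was -4.98 ± 0.84 with an IK tumor and -4.12 ± 0.62 alone, and that of Xcr1 was -4.74 ± 0.46 and -4.29 ± 0.31 (SD, n = 6 each). These differences of -0.87 and -0.44 had two-sided exact permutation p-values of 0.069 and 0.078 over 924 assignments. Naaa went the other way, at -0.09 ± 0.08 with an IK tumor and -0.24 ± 0.13 alone, a difference of 0.15 (unadjusted exact permutation p = 0.0498). All exact permutation p-values of these ratios are unadjusted. After Benjamini-Hochberg adjustment over the 9 genes, 0 of the 9 passed 0.05. With the mean of the 5 pan-leukocyte genes in place of Ptprc, the Naaa difference was 0.10 (exact permutation p = 0.184). With the mean of 10 macrophage genes its direction turned, to -0.14 (exact permutation p = 0.067), and that of Zbtb46 was -0.23 (exact permutation p = 0.113), so that all 9 lay lower. Against Ptprc, Zbtb46 differed by 0.06 (exact permutation p = 0.392), and the other 5 by -0.10 to -0.33 (exact permutation p = 0.102 to 0.262). Over all genes, limma on these ratios called 0 of the 9 and 0% of all, with adjusted p-values of the 9 from 0.184 to 0.738, and had 2 of the 9 at an unadjusted p under 0.05 against 19.2% of all genes.

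**Figure D3:**
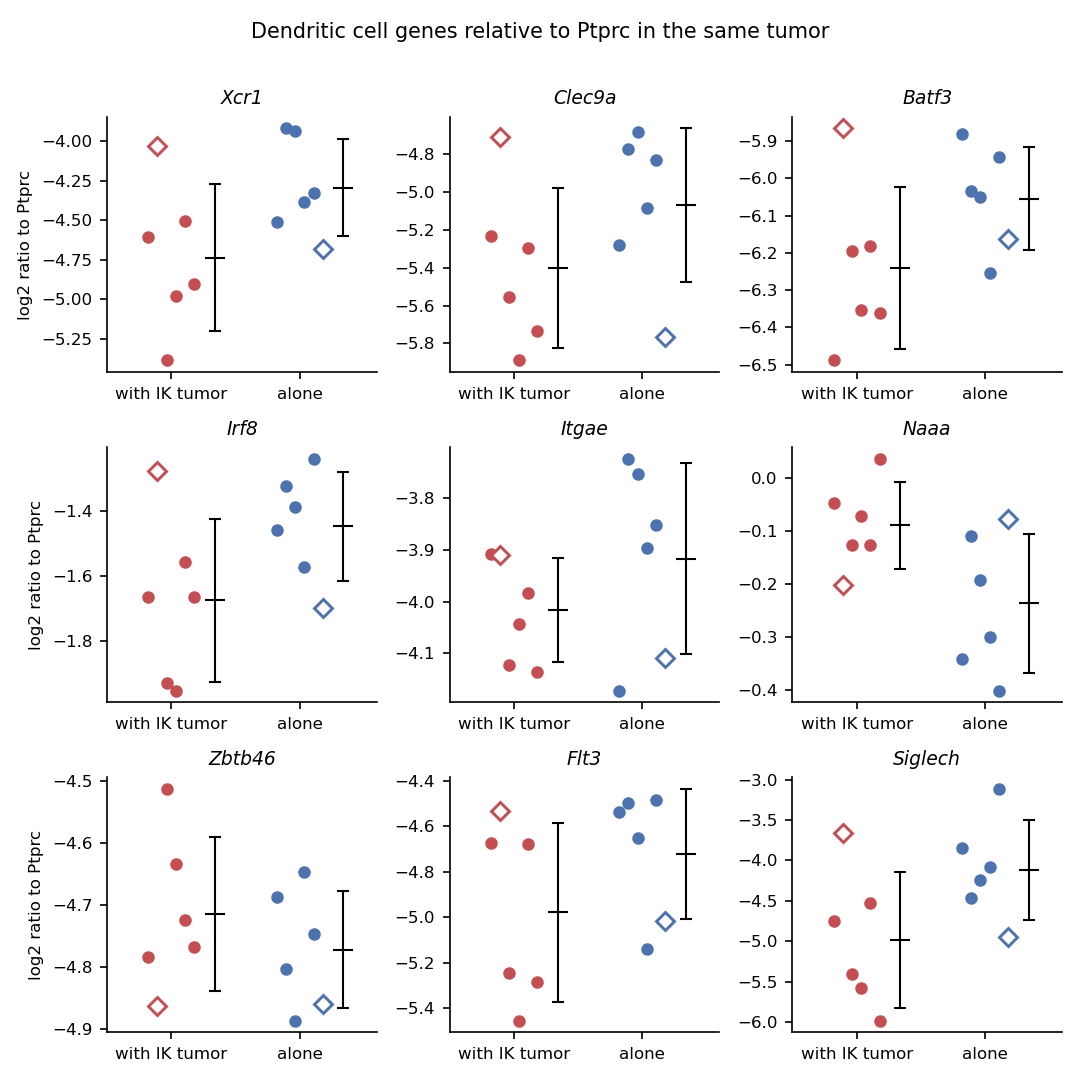
Log2 ratio of each gene to Ptprc in the same tumor (y axis) for the 6 tumors with an IK tumor and the 6 alone, with group mean and SD. Open diamonds are IK replicate 2 and SC replicate 6. The mean Naaa ratio is higher with an IK tumor (-0.09 against -0.24), a direction that turns when macrophage genes replace Ptprc; those of Xcr1 and Siglech are lower.

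The 9 genes varied together among tumors of the same group. For each of 36 pairs, the log2 CPM deviations from the group means were correlated over the 12 tumors. Pearson's r ran from 0.646 (Xcr1 with Zbtb46, Spearman's rho 0.441) to 0.981 (Clec9a with Itgae, rho 0.972), with a median of 0.912. By permutation within groups, with Benjamini-Hochberg adjustment over the 36 pairs, 36 of 36 Pearson correlations passed 0.05 (adjusted permutation p = 0.00036 for Clec9a with Itgae and 0.027 for Xcr1 with Zbtb46, raw p = 2e-05 and 0.027). Of all 98105028 pairs of tested genes, 7.97% had an r of 0.646 or more, and 0.339% had the members' median or more. For rank correlation the adjusted permutation p was 0.0009 and 0.172 for the same pairs. These relations rest in part on IK replicate 2 and SC replicate 6. In every pair they were the 2 tumors farthest from the middle for the gene that comes earlier in the list of 9. Without them r was 0.944 for Clec9a with Itgae and 0.204 for Xcr1 with Zbtb46 on the same deviations, whose group means include those tumors. With group means taken anew over the other 10 tumors, r was 0.906 for Clec9a with Itgae. For Xcr1 with Zbtb46 it turned to -0.150, the lowest of the 36. In that setting 16 of 36 pairs passed, with a median r of 0.738. The lowest r that passed was 0.735, and 4.81% of all gene pairs were as large in either direction.

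After Ptprc was subtracted in each tumor, 12 of 36 pairs passed, with an r of at least 0.723 in size, which 71.5% of all gene pairs reached. The ratios share Ptprc as a common term, so the count says nothing particular to the members, and the values are a description. Xcr1, Clec9a and Irf8 correlated with each other at r = 0.838 to 0.849 (adjusted permutation p = 0.011 to 0.013), and each of them with Flt3 at 0.723 to 0.843. Itgae stayed with Xcr1 (r = 0.766) and Clec9a (r = 0.792). Siglech varied with Irf8 (r = 0.763), Flt3 (r = 0.759) and Clec9a (r = 0.753), and against Naaa (r = -0.814, adjusted permutation p = 0.011). Zbtb46 had negative values with all 8 others, lowest with Xcr1 (r = -0.706, adjusted permutation p = 0.058).

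**Figure D4:**
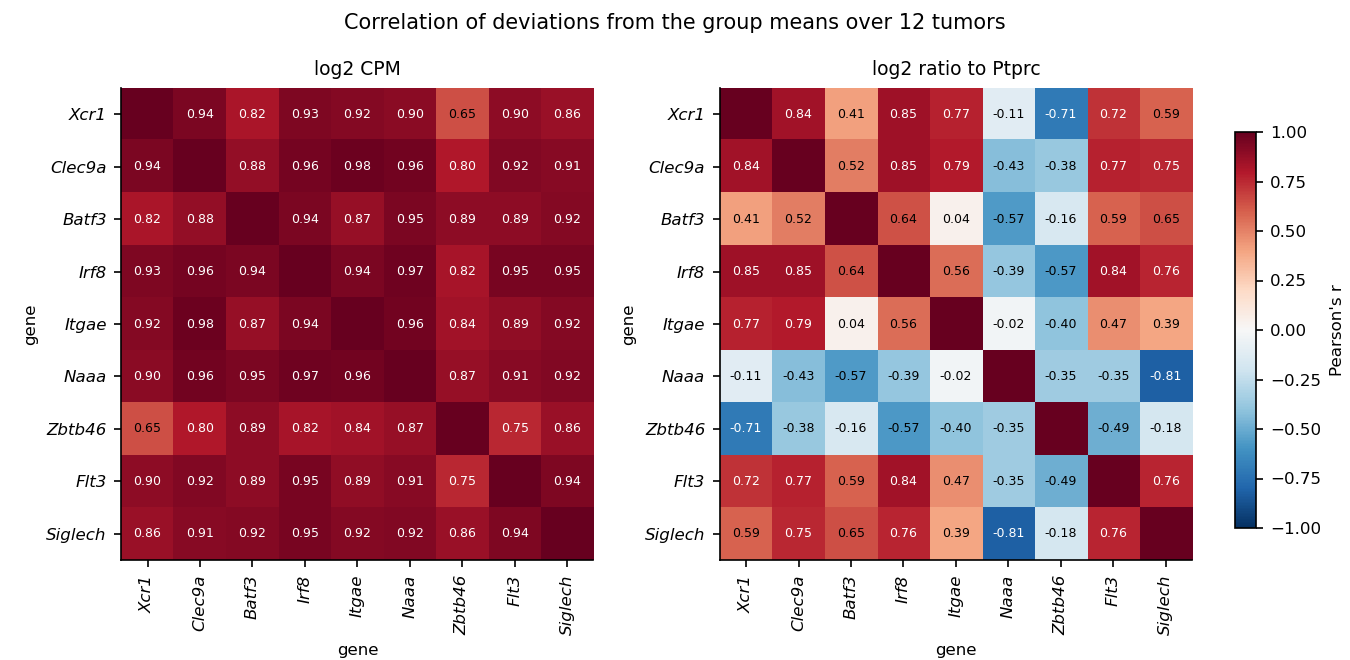
Pearson's r between the 9 genes (both axes) over 12 tumors, from deviations of log2 CPM from the group means (left) and of the log2 ratio to Ptprc (right). On the left all values are positive, from 0.65 to 0.98; on the right Naaa and Zbtb46 are negative against Xcr1, Clec9a, Irf8, Flt3 and Siglech.

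The genes most like each of the 9 were taken as those with the highest Pearson r of the same deviations over the 12 tumors, among all tested genes. These values are descriptions, and all genes share the libraries and the pair of tumors that stood apart. Genes near Siglech were Klk1 (r = 0.993) and the chemokine receptor gene Ccr9 (0.987). These stayed at 0.992 and 0.974 without IK replicate 2 and SC replicate 6. Xcr1 was nearest to H2-Ob (0.990), a chain of the MHC class II modulator DO, then Tbrg1 (0.982) and Gm4841 (0.978), with 0.967, 0.918 and 0.928 without the pair. Clec9a was nearest to Ipcef1 (0.984), Itgae (0.981) and the T cell receptor constant region gene Trac (0.978), and Itgae to Clec9a (0.981), the histidine decarboxylase gene Hdc (0.975) and the NADPH oxidase gene Cybb (0.975). Irf8 was nearest to Dennd1c (0.997), Pik3ap1 (0.990) and Parp3 (0.990), and Batf3 to Ntng2 (0.987), Lax1 (0.981) and Sept6 (0.979). Naaa was nearest to Tmem229b (0.990), Grap2 (0.987) and Trac (0.986), Flt3 to the kinase gene Ptk2b (0.988), Rubcnl (0.983) and the interleukin 15 receptor gene Il15ra (0.971). Zbtb46 was nearest to the non-muscle myosin gene Myh10 (0.987), Atp8b1 (0.984) and Akap11 (0.978).

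Most other genes of the same cells lay in the same direction, and with all 12 tumors 0 of them were called. Of 12 tested genes of cross-presenting cells beside the 9, 11 lay lower in the IK group (median -0.27). Tlr11, a receptor of protozoan and bacterial proteins, had a log2 difference of -1.11 (SE 0.36), the sorting nexin gene Snx22 one of -0.65 (SE 0.24) and the small GTPase gene Rab7b one of -0.25 (SE 0.10), each with a limma adjusted p of 0.432. Of 11 tested plasmacytoid genes, 10 were lower (median -0.51). Pacsin1, a membrane-bending protein, lay at -1.56 (SE 0.56), the DNA sensor Tlr9 at -0.71 (SE 0.29) and the interferon-induced antigen Bst2 at -0.63 (SE 0.27), with the same limma adjusted p of 0.432. Without IK replicate 2, limma called Tlr11 (-1.41, adjusted p = 0.034) and Bst2 (-0.87, adjusted p = 0.045), and the other 4 genes named here had adjusted p-values of 0.052 to 0.075. In that fit 1.22% of all genes were called. Leaving out SC replicate 6 instead gave a limma adjusted p of 0.196 for Tlr11 and 0.198 for Bst2. Leaving out SC replicate 5 gave 0.766 for both. The summed plasmacytoid genes ranged from 365 to 777 CPM with an IK tumor and from 398 to 965 alone.

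Genes shared by conventional dendritic cells and other antigen-presenting cells were lower in 8 of 8 (median -0.58). The class II transactivator Ciita differed by -0.63, H2-Ab1 by -0.63 and the invariant chain gene Cd74 by -0.65 (limma adjusted p = 0.432 for each). Without IK replicate 2, limma called Ciita (-0.85, adjusted p = 0.035) and H2-Ab1 (-0.87, adjusted p = 0.047), while Cd74 was at -0.90 (adjusted p = 0.052). In that fit 1.22% of all genes were called. Leaving out SC replicate 6 instead gave a limma adjusted p of 0.196 for Ciita and 0.198 for H2-Ab1. Leaving out SC replicate 5 gave 0.766 for both. Type 2 conventional dendritic cell genes were lower in 6 of 8 tested (median -0.31). Those of smallest p were the lectins Clec10a at -0.68, Cd209a at -0.53 and Clec12a at -0.68 (limma adjusted p = 0.432, 0.443 and 0.461). Sirpa (0.03) and Klf4 (0.19) lay higher in the IK group. The summed type 2 genes ranged from 1102 to 1195 CPM with an IK tumor and from 1140 to 1212 alone. IK replicate 1, and not IK replicate 2, had the highest IK sum. Mature dendritic cell genes were lower in 5 of 5, by a median of -0.11. For all genes tested the median was 0.01, as given above, and with all 12 tumors limma called 0 members of any of these lists.

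Among signals to these cells, Xcl1, the ligand of XCR1 made by NK and CD8 T cells, lay at -1.73 to 2.78 log2 CPM with an IK tumor and at 0.004 to 2.76 alone. Its means were -0.05 ± 1.58 and 1.85 ± 1.00 (SD, n = 6 each), and its log2 difference of -1.90 (SE 0.68) had a limma adjusted p of 0.432. The T cell attractant Cxcl9 differed by -2.25 (SE 0.78) and Csf2ra, a chain of the GM-CSF receptor, by -0.23 (SE 0.09), with the same adjusted p. Without IK replicate 2, limma called Xcl1 (-2.47, adjusted p = 0.040) and Cxcl9 (-2.97, adjusted p = 0.034), where 1.22% of all genes were called. For both genes the limma adjusted p was 0.196 without SC replicate 6 and 0.766 without SC replicate 5. Of the 9 tested genes in this group of growth factors, attractants and products, 8 had lower means (median -0.36). Flt3l and Il12a were not analysed here.

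Markers of other cells that use some of the 9 genes moved with the same tumors. T cell genes were lower in 8 of 8 (median -1.34), summing to 12.1 to 87.0 CPM with an IK tumor and 17.7 to 94.0 alone. NK cell genes were lower in 5 of 5 tested (median -1.88), at 3.85 to 38.4 and 7.66 to 57.9 CPM. Macrophage genes were lower in 7 of 10 (median -0.11), at 2605 to 3540 and 2631 to 3428 CPM, monocyte genes in 4 of 5 tested (median -0.31), and endothelial genes in 6 of 6 (median -0.15), at 166 to 243 and 163 to 300 CPM. In each of these 5 lists IK replicate 2 had the highest sum of its group and SC replicate 6 the lowest. Their part in the differences of the 9 genes was not tested. B cell genes did not follow: 0 of 2 tested were lower, and they summed to 6.77 to 8.86 and 6.76 to 9.77 CPM. Fat cell genes were lower in 4 of 4 tested (median -0.96), at 20.4 to 53.6 and 25.5 to 87.3 CPM, and skeletal muscle genes in 1 of 5 (median 0.02). The fat cell and muscle lists also had their highest IK sum in IK replicate 2 and their lowest SC sum in SC replicate 6. These positions were therefore not particular to lists of cells that use some of the 9 genes. Of the skin and Langerhans cell list only Cd207 was tested (0.04). Renca markers were lower in 4 of 5 (median -0.07), at 2371 to 2504 and 2268 to 2837 CPM.

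**Figure D5:**
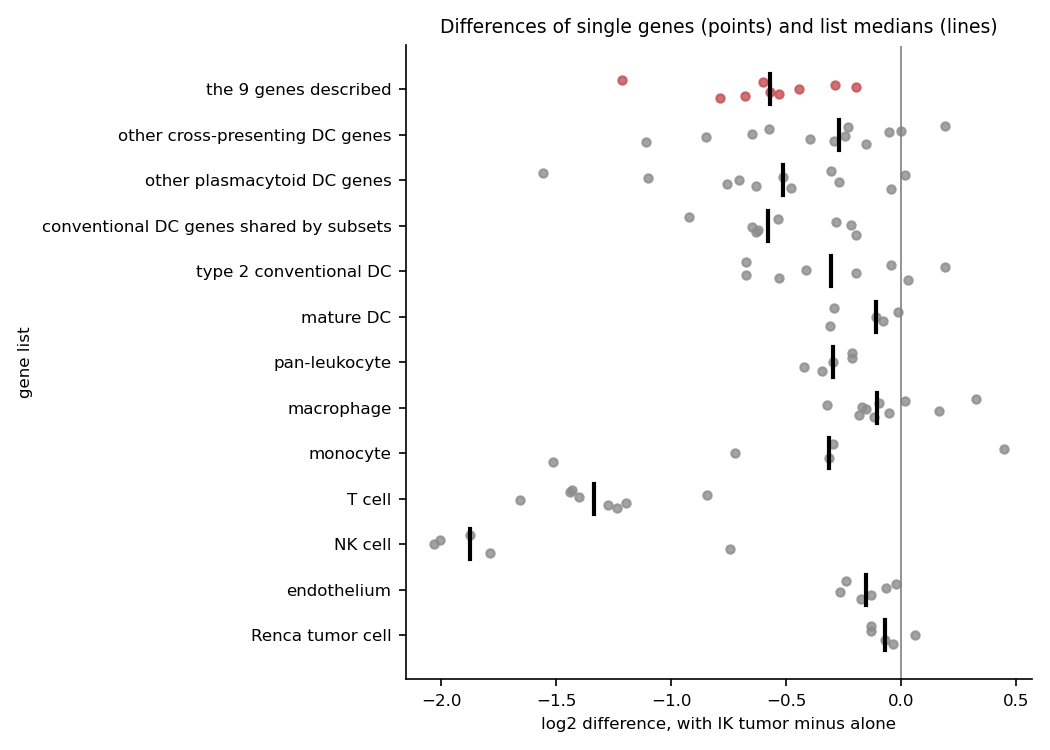
Log2 difference (x axis, tumors with an IK tumor minus tumors alone) of each tested gene of the lists drawn, as points, with the list median as a black bar. Not drawn are the lists of growth factors, attractants and products, B cells, skin and Langerhans cells, skeletal muscle and fat cells. The 9 genes described lie between -1.21 and -0.20, T and NK cell genes lower (medians -1.34 and -1.88), and Renca markers near 0 (median -0.07).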

How the data were processed

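RNA of 12 whole tumors was measured by RNA-seq after Qiagen RNeasy extraction and Illumina TruSeq preparation, per the labels' protocols. The submitters' processing notes list HTSeq and limma beside CASAVA 1.8.2 and TopHat 1.4.1, and the mm9 build, without settings. How strand was handled is not given in the sources used here, so reads of genes that overlap may be mixed. The authors deposited log2 values for 14496 genes in the form of log2 CPM with 0.5 reads added. In every tumor 100% of values gave whole reads within 0.001 read, and these were summed as depth. Symbols came from a newer annotation by identifier, for 14004 genes. The table lists only genes with a log2 CPM of 0 or more in at least 2 tumors.

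Genes with a log2 CPM of 0 or more in at least 6 tumors (14008, all 9 members among them) entered limma (version 3.58.1, R version 4.3.3), run on the values as deposited (empirical Bayes with a variance trend, two-sided, Benjamini-Hochberg over all genes, threshold 0.05). Ratios to Ptprc were compared by exact permutation in Python 3.11.15, and member pairs by 100000 permutations within groups. Set beside the 9 genes were 17 lists. The rule for named genes took up to 3 genes of smallest p per list and the 3 nearest genes of each member; values are printed for Ptprc, Cd207 and genes of 5 dendritic cell lists, and other lists are given as counts, medians or sums. A gene that the rule named is not reported here. The members and lists were chosen with earlier results of these data known, and lists were not tested. The test was checked on simulated data in which genes varied independently, which leaves out the variation that genes share in these tumors. No pair of tumors within a group differed as little as counting error allows (chi-square per degree of freedom 13.2 to 164 over 30 pairs). Same-numbered tumors did not deviate together in every pair, so the numbers were not taken to pair them. Alternatives were other filters, scalings, variance models, weights, covariates, reference genes, a replicate block and leaving tumors out; limma on ratios over all genes was added after seeing the data.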

Additional observations from a re-analysis of the deposited data

Results flagged for a closer look

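In 50 groups of 6 tumors (25 genes, each in both groups), the highest or lowest tumor was separated from the rest by more than Dixon's 95% limit in 17, where chance gives about 1 in 20, and the genes vary together. IK replicate 2 was the separated tumor in 13 of them, SC replicate 6 in 3 and SC replicate 5 in 1. Among the 9 genes, IK replicate 2 was the high tumor for Batf3 (2.04 log2 CPM), Irf8 (6.64) and Naaa (7.71), and SC replicate 6 the low tumor for Xcr1 (2.40) and Clec9a (1.32). In the other genes IK replicate 2 was high for Ptprc (7.91), Tlr11 (3.22), Tlr9 (4.48), Bst2 (8.17), Cxcl9 (8.10), Ciita (7.03), H2-Ab1 (9.83), Cd74 (11.42), Clec10a (4.68) and Clec12a (6.01), all in log2 CPM. SC replicate 6 was low for Xcl1 (0.00), and SC replicate 5 was high for Csf2ra (5.84).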

How the results depend on the processing

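The sign of the 9 differences stayed negative in 224 of 225 values (9 genes under 25 alternatives), and Naaa turned to 0.0046 with the pan-leukocyte covariate. In limma, sample weights called 4 of the 9 genes (Xcr1, Batf3, Irf8 and Itgae), 29 of 109 other list genes and 545 of all genes, and leaving out IK replicate 2 and SC replicate 6 together called 9, 72 and 2471 (17.6% of all genes). That pair was left out because of its levels, so these calls do not stand as tests of the groups. Without a variance trend 1 gene was called over all genes. Leaving out 1 tumor at a time called 0 of the 9 in every case, 0 to 171 of all genes and 0 to 12 other list genes, the highest counts without IK replicate 2. Member pairs passed in 16 of 36 without the pair, in 12 of 36 after Ptprc was subtracted, and in 33 to 36 with 1 tumor left out. The ratios to Ptprc gave 0 calls under every alternative run. Same-numbered tumors correlated at -0.31 to 0.45 in their deviations from the group means, so that the numbers do not pair them, and only number 6 correlated best with its own; with a replicate block limma called 0 of the 9 and 0 of all genes, as without it, and the block gave 0 calls among the ratios. The cause of these shifts was not tested. Depth limits little here, since the lowest count among the 9 genes was 92 reads, and the spread between tumors sets the precision.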
